A study of Mus musculus with 12 samples.

Results

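The 10 genes described here encode the enzymes that break down glycine and serine in the liver, together with enzymes that use glycine or pass on its carbon. They were Gldc, Amt, Gcsh and Dld of the glycine cleavage system, the serine dehydratase genes Sds and Sdsl, the glycerate kinase gene Glyctk, the aminotransferase gene Agxt, and the glycine-consuming transferase genes Glyat and Gnmt. The genes were chosen by name from these pathways, and their probes were found through the RefSeq accession that the array gives for each probe. Of 39429 probes on the array, 14 read these genes, and all 10 genes were among the 16915 genes tested. Liver RNA came from 6 Floxed and 6 LKO mice, all male, 30 weeks old and of the C57BL/6 strain. Floxed mice (Phgdh flox/flox) carried 2 conditional alleles of Phgdh, the gene of phosphoglycerate dehydrogenase, which starts serine synthesis from a glycolytic intermediate. LKO mice (Alb+/Cre;Phgdh flox/flox) were their littermates and carried the same floxed alleles plus a Cre transgene driven by the albumin promoter, so recombination is limited to hepatocytes and the other cells of the liver keep Phgdh. Both groups were housed with 12 h of light a day and ate chow that contained 20% casein.

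The glycine cleavage system is a mitochondrial complex of P, T, H and L proteins that splits glycine into carbon dioxide and ammonia and hands the remaining carbon to tetrahydrofolate. The lipoate arm of the H protein carries the reaction intermediate between the other proteins, and liver is one of the main sites of the system in mammals. Serine leaves the liver pool by dehydration to pyruvate, by transamination to hydroxypyruvate and on to glycerate, or by conversion to glycine. The routes to pyruvate and to glycerate can feed gluconeogenesis.

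RefSeq promoter entries (GRCm38.p6) were matched for 8 of the 10 genes, and the 250 bases upstream of the start site are shown for 3 of them. With each of the 10 genes read by its brightest probe, Gldc is shown because it varied most between the mice and Gcsh because it varied least. Agxt is shown because it followed Gldc most closely. Capitals mark matches, on either strand, to the CCAAT box (CCAAT) and the GC box (GGGCGG). The windows are chr19:30175442-30175691 on the minus strand for Gldc, chr8:116993499-116993748 on the minus strand for Gcsh and chr1:93134990-93135239 on the plus strand for Agxt.
Gldc: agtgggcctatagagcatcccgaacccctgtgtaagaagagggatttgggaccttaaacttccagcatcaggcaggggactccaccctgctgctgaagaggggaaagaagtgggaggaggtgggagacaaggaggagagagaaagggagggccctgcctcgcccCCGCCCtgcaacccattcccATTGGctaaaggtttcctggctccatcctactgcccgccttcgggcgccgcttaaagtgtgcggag
Gcsh: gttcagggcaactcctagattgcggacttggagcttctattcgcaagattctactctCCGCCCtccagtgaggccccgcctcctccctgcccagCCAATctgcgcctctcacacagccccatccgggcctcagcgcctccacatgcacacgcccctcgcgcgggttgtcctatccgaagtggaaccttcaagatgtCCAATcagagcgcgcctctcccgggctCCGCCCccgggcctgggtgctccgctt
Agxt: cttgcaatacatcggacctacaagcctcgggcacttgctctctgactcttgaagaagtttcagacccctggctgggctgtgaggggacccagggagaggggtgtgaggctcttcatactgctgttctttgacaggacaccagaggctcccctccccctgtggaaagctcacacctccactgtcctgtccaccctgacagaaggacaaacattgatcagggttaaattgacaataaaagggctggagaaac
The Gldc window had a GC content of 59.6%, with a GC box match starting at -86 and a CCAAT match at -66 from the start site. The Gcsh window had a GC content of 64.4% and held 2 CCAAT matches, at -156 and -54, and 2 GC box matches, at -193 and -27. The Agxt window, at 53.6% GC, held neither. Among the 8 windows, 6 had a CCAAT match and 3 a GC box match, against 33.9% and 32.7% of all 32841 promoter windows of this length. Matches to the nuclear receptor half-site AGGTCA lay in 3 windows, those of Amt, Glyctk and Gnmt (14.0% of all windows). Neither the TATA box TATAAA (12.4% of all windows) nor the E-box CACGTG (6.02%) occurred in any of the 8, which says only that these letters are not in these windows.

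Each liver was hybridized to 1 single-color Agilent array labeled with cyanine 3. The arrays lay on 3 slides. Floxed 1 to 4 were on slide 1 and LKO 3 to 6 on slide 3, while slide 2 carried both genotypes (Floxed 5, Floxed 6, LKO 1 and LKO 2), so genotype and slide cannot be told apart outside these 4 arrays. Between 21614 and 24252 probes per array were well above background, and no spot was saturated. Phgdh itself, read by a dim probe, had log2 intensities of 4.81 to 5.50 in Floxed mice and 4.23 to 4.66 in the LKO mice of slide 3. The arrays labeled LKO 1 and LKO 2 gave 5.07 and 5.30, inside the Floxed range, so the results are also given without these 2 arrays. On this probe, LKO minus Floxed was -0.05 within slide 2, and the LKO mean of slide 3 minus that of slide 2 was -0.73. A second, dimmer Phgdh probe was well above background on only 4 arrays (1 Floxed and 3 LKO) and was not tested. Its mean log2 intensity was 2.87 in Floxed and 3.17 in LKO mice. Whether either probe reads the deleted exons was not analysed here. Of the hepatocyte markers, 7 of 8 were tested, which required a probe well above background on all 12 arrays. Their summed intensity after quantile normalization was 1299260 to 1386630 in Floxed and 1298320 to 1424110 in LKO livers. This normalization makes the brightest probes alike between arrays (Serpina1a had a mean log2 intensity of 18.77 in both groups). The sum therefore cannot compare the hepatocyte content of the livers. In a whole-liver sample, fewer cells of a type and less RNA per cell cannot be told apart.

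LKO mice were bred to lose hepatocyte Phgdh, and with it a route to serine. In LKO 1 and LKO 2 the Phgdh signal lay inside the Floxed range. The question asked of the 10 genes was whether LKO livers carried different mRNA levels of the enzymes that dispose of serine and glycine. None of the 10 passed the test. At an unadjusted limma p below 0.05, the criterion of the study's array methods, 0 of 10 genes were called, where 1413 of 16915 genes on the array (8.35%) were called, 832 of them higher (4.92%) and 581 lower (3.43%) in LKO mice. The methods' t-test also called 0 of 10, and 1236 of 16913 genes on the array (7.31%). After Benjamini-Hochberg adjustment, limma called 0 of the 16915 genes. The groups overlapped for every one of the 10 genes, while they did not overlap for 50 genes on the array (0.296%). The log2 fold changes (LKO minus Floxed) ran from -0.11 for Glyctk to 0.09 for Dld, with 6 genes higher and 4 lower and a median of 0.02, against a median of -0.0035 over all tested genes. In this fit, which leaves slide out, the 95% confidence intervals lay between a fold of 0.784 (the lower bound for Glyctk) and 1.31 (the upper bound for Gldc). With slide as a fixed block the intervals were wider, from a log2 fold change of -0.60 (Glyat) to 1.04 (Gldc). Larger changes than those of the first fit are therefore not excluded. The replicates were close, with a median SD over the 12 livers of 0.19 log2 units for the 10 genes and 0.22 for all tested genes.

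**Figure D1:**
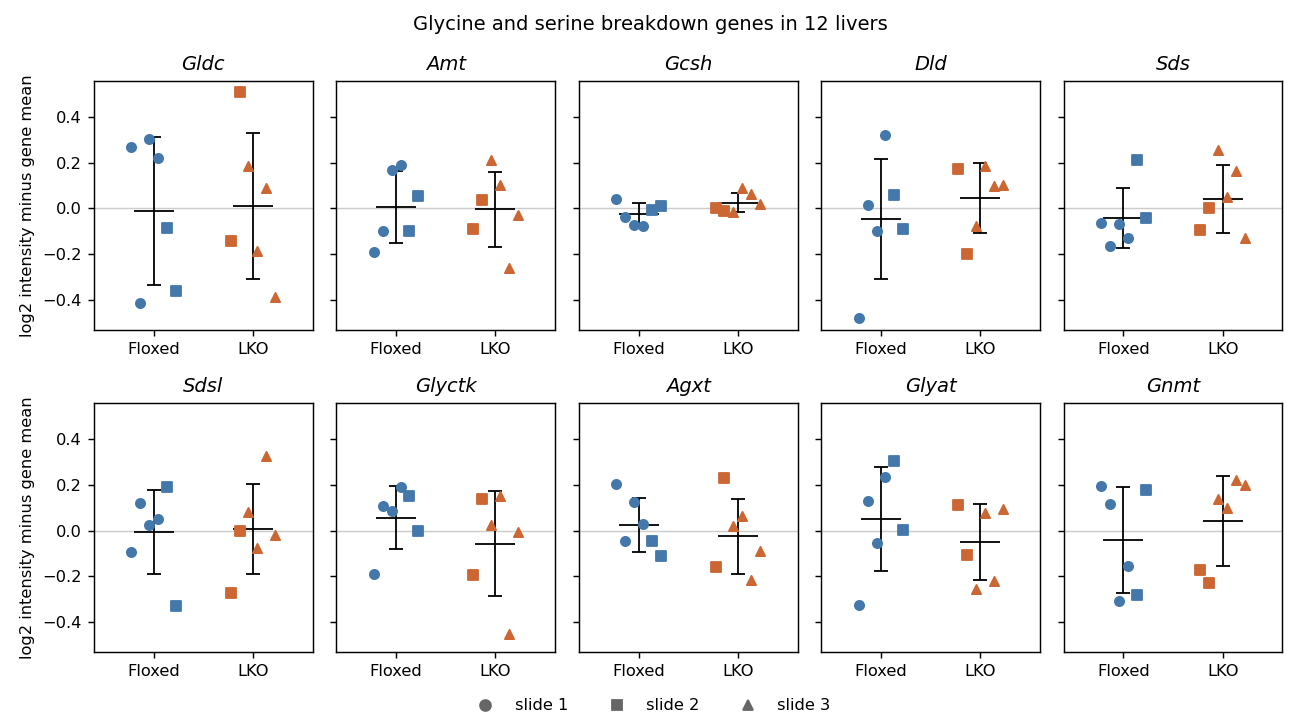
Log2 intensity of each gene in each liver, minus the mean of that gene over the 12 livers; points are single mice, shaped by slide, and the horizontal bars with whiskers are the group mean and SD (n = 6). Floxed and LKO mice overlap in every panel, Gldc spreads over 0.92 log2 units and Gcsh over 0.16.

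Of the glycine cleavage system, Gldc (RefSeq NM_138595) encodes the P protein, the decarboxylase of the system. Its log2 intensity was 11.76 at the lowest, 12.24 at the median and 12.47 at the highest in the 6 Floxed mice, and 11.78, 12.14 and 12.68 in the 6 LKO mice. High and low livers occurred in both genotypes: the lowest value of all was Floxed 2 and the highest was LKO 2, a span of 1.89-fold. Group means were 12.16 ± 0.32 (SD, n = 6) and 12.18 ± 0.32 (SD, n = 6), and the log2 fold change was 0.02 (95% confidence interval -0.35 to 0.39, limma adjusted p = 0.992).

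Amt (NM_001013814) encodes the T protein, which transfers the carbon unit to tetrahydrofolate. The log2 intensity of Amt was 7.10, 7.27 and 7.48 (lowest, median, highest) in Floxed mice and 7.03, 7.30 and 7.50 in LKO mice. Both the highest and the lowest liver were LKO, and the log2 fold change was -0.01 (95% confidence interval -0.22 to 0.20).

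Gcsh (NM_026572) encodes the lipoate-bearing H protein and, as read by its brightest probe, was the steadiest of the 10 genes. The log2 intensity was 13.51, 13.56 and 13.62 in Floxed and 13.57, 13.59 and 13.67 in LKO mice. Its SD over the 12 livers, 0.05, was smaller than that of all but 0.166% of the tested genes. The log2 fold change of 0.05 (95% confidence interval -0.08 to 0.17) was close in size to this SD, and the exact permutation p (two-sided, 6 against 6 mice) was 0.0909, the smallest among the 10 genes.

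Dld (NM_007861) encodes the L protein, a lipoamide dehydrogenase that also serves the pyruvate, oxoglutarate and branched-chain keto acid dehydrogenase complexes. In Floxed mice the log2 intensity was 10.85, 11.29 and 11.65, and it was 11.13, 11.43 and 11.52 in LKO mice. All 6 LKO livers lay inside the Floxed range, whose ends were Floxed 1 and Floxed 4. The log2 fold change was 0.09 (95% confidence interval -0.17 to 0.35).

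For 3 of these genes the array carried more than 1 probe, and the probe with the higher mean intensity was used. The 2 Dld probes followed each other over the 12 livers (Pearson r = 0.95), and both put Floxed 1 lowest and Floxed 4 highest. The second Dld probe gave a log2 fold change of 0.15. The 2 Glyctk probes were less alike (r = 0.53), with log2 fold changes of -0.11 and -0.05. The 3 Gcsh probes differed in sign: the probe used gave 0.05, the next brightest -0.05 and a dim one -0.12, and the 2 bright ones did not follow each other (r = -0.15). Each of these differences was below the call criterion, so the sign of the Gcsh difference is not settled by the array. The spread of Gcsh also depended on the probe, with SDs of 0.21 in Floxed and 0.20 in LKO mice on the dim one.

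**Figure D2:**
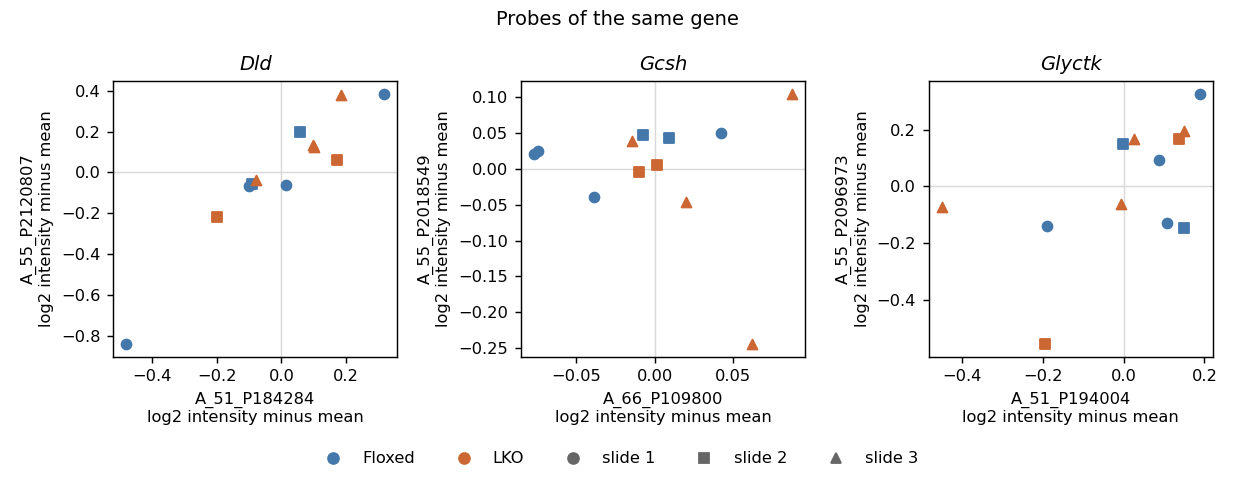
Log2 intensity of one probe against a second probe of the same gene, each minus its mean over the 12 livers; colors mark genotype and shapes the slide. The Dld probes rise together (r = 0.95), the Glyctk probes do so less (r = 0.53), and the bright Gcsh probes, which span well under 0.5 log2 units, show no shared order (r = -0.15).

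Sds (NM_145565) encodes serine dehydratase, which turns serine into pyruvate and ammonia and is a classical target of glucagon and of protein-rich feeding. Floxed mice had log2 intensities of 12.78, 12.87 and 13.15, and LKO mice 12.81, 12.97 and 13.19. The upper end of the Floxed group was a single liver, Floxed 5, with the next highest at 12.90. The log2 fold change was 0.08 (SE 0.09, 95% confidence interval -0.11 to 0.28, limma adjusted p = 0.935), and without Floxed 5 it was 0.13. Sdsl (NM_133902) encodes a close relative of serine dehydratase and is the direct neighbour of Sds in the genome, with 0 genes between them. Its log2 intensity was 11.16, 11.52 and 11.67 in Floxed and 11.21, 11.48 and 11.81 in LKO mice, and the log2 fold change was 0.01 (95% confidence interval -0.22 to 0.25).

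On the route from serine through hydroxypyruvate, Agxt (NM_016702) encodes an aminotransferase that accepts serine and also converts glyoxylate back to glycine. The log2 intensities were 15.25, 15.35 and 15.56 in Floxed mice and 15.14, 15.32 and 15.59 in LKO mice. The LKO group held both the lowest liver (LKO 5) and the highest (LKO 2), and the log2 fold change was -0.05 (95% confidence interval -0.25 to 0.14). Glyctk (NM_174846) encodes the kinase that returns glycerate to glycolysis. From lowest to highest, Floxed mice spanned 10.62 to 11.00 (median 10.90) and LKO mice 10.36 to 10.96 (median 10.82) on the log2 scale. The log2 fold change of -0.11 (SE 0.11, 95% confidence interval -0.35 to 0.12) had the smallest limma p of the 10 genes, 0.317 before and 0.921 after adjustment. Its size depended on LKO 5, the lowest liver: without that array it was -0.04.

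Of the enzymes that spend glycine, Glyat (NM_145935) encodes the transferase that couples glycine to benzoate and other acyl groups for excretion. Values on the log2 scale were 12.48, 12.87 and 13.11 in Floxed mice and 12.55, 12.79 and 12.92 in LKO mice. Every LKO liver lay inside the Floxed range, and the log2 fold change was -0.10 (95% confidence interval -0.35 to 0.15). Gnmt (NM_010321) encodes the methyltransferase that makes sarcosine from glycine and so disposes of surplus methyl groups. Its log2 intensity was 16.53, 16.82 and 17.03 in Floxed and 16.61, 16.95 and 17.06 in LKO mice, with a log2 fold change of 0.08 (95% confidence interval -0.18 to 0.35). The 2 LKO livers below the others, LKO 1 and LKO 2, were those of slide 2.

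Because most arrays of a genotype shared a slide, the differences were also read by slide. On slide 2 alone, with 2 mice per genotype, LKO minus Floxed was 0.41 for Gldc, 0.11 for Agxt, -0.13 for Sds and -0.15 for both Glyat and Gnmt. With slide as a fixed block, which rests on the same 4 arrays, the Gldc interval was -0.23 to 1.04 and its limma p was 0.185, the smallest of the 10 genes in that fit. Across slides, with LKO 3 to 6 set against Floxed 1 to 4, the difference was -0.17 for Gldc, 0.19 for Sds and 0.20 for Gnmt. The sign of Gldc, Sds, Gnmt, Agxt, Sdsl and Gcsh therefore differed between the comparison within slide 2 and that across slides 1 and 3, and none of the 10 was called in either, where 512 genes on the array (3.03%) were called within slide 2 and 1947 (11.5%) across slides. Without LKO 1 and LKO 2, the log2 fold changes ran from -0.13 (Glyctk) to 0.21 (Gnmt, 95% confidence interval -0.06 to 0.47). All LKO arrays left were on slide 3 and all Floxed arrays on slides 1 and 2, so genotype and slide cannot be told apart in this fit. Gldc was at -0.06 in this fit. At an unadjusted p below 0.05, limma called 0 of the 10 genes and 2173 of 16915 genes on the array (12.8%).

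**Figure D3:**
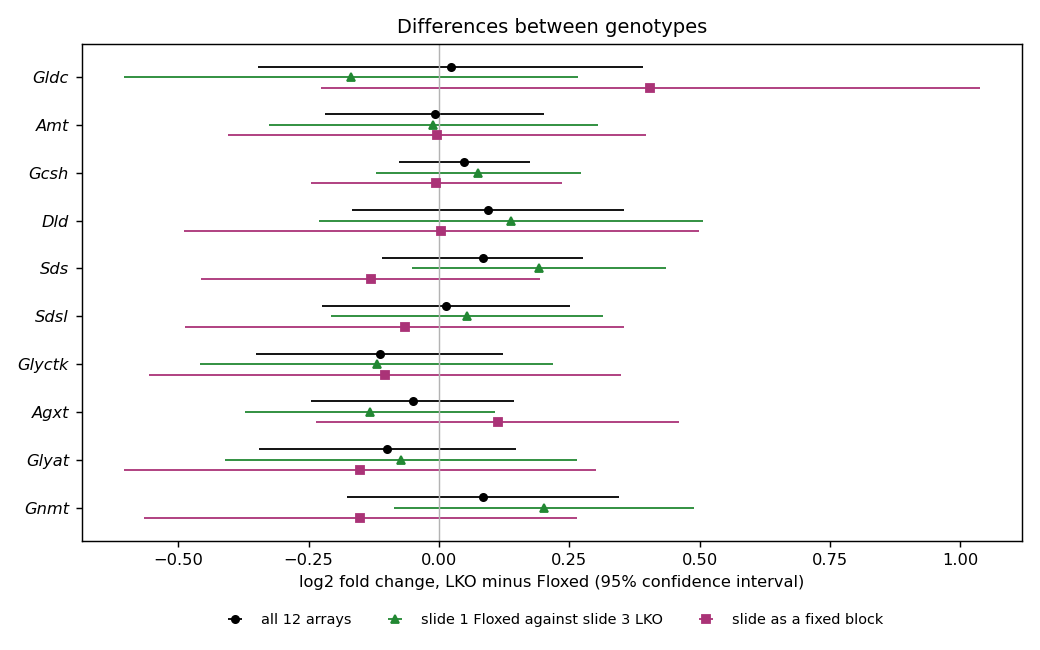
Log2 fold change (LKO minus Floxed) of each gene with its 95% confidence interval, for all 12 arrays, for slide 3 LKO against slide 1 Floxed arrays, and with slide as a fixed block. Every interval spans 0; the Gldc point moves from -0.17 across slides to 0.41 with the block.

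Other genes that touch the same metabolites were read from 7 lists of 77 genes, of which 71 were tested. None passed the call criterion in either direction (limma, unadjusted p below 0.05; 8.35% of all tested genes passed), and 46 were higher and 25 lower in LKO mice. The median of their log2 fold changes was 0.03. Lipoate assembly, which builds the cofactor of the H protein, had 8 of 9 genes tested. Its largest changes were Bola3, an iron-sulfur cluster factor (0.17, 95% confidence interval -0.03 to 0.38), and Iba57, another (-0.12). The subunits of the other complexes that use Dld numbered 10, and each had a positive log2 fold change, from 0.0043 to 0.21 with a median of 0.06. Dlat and Pdha1, both of pyruvate dehydrogenase, led them over all 12 arrays at 0.21 (95% confidence interval -0.12 to 0.55) and 0.14. On slide 2 alone, 4 of the 10 were lower in LKO mice, among them Pdhb at -0.31 and Pdha1 at -0.13, and Dlat was at 0.0087.

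Glyoxylate and oxalate metabolism, with 6 of 8 genes tested, held the smallest changes, from -0.05 (Prodh2) and -0.04 (Agxt2, a mitochondrial aminotransferase) to 0.03. The list of glycine conjugation and other uses of glycine had 9 of 11 genes tested. Alas1, the rate-limiting enzyme of heme synthesis from glycine, had the largest value of any list gene at -0.62, with SDs of 0.95 in Floxed and 0.80 in LKO mice and a 95% confidence interval of -1.60 to 0.35. Keg1, a relative of Glyat, was at -0.23. The 7 genes that make glycine from choline ranged from -0.04 to 0.08, led by Bhmt2 (0.08) and Bhmt (0.07), the betaine methyltransferases. Of other serine and threonine routes, 5 of 6 genes were tested, with Cbs, which commits serine to cysteine synthesis, at -0.09 and the serine racemase gene Srr at 0.09. The breakdown of other amino acids, with 26 of 26 genes tested, was led by Prodh of proline oxidation (0.24, 95% confidence interval -0.13 to 0.61) and the alanine aminotransferase gene Gpt2 (0.21, 95% confidence interval -0.06 to 0.49).

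**Figure D4:**
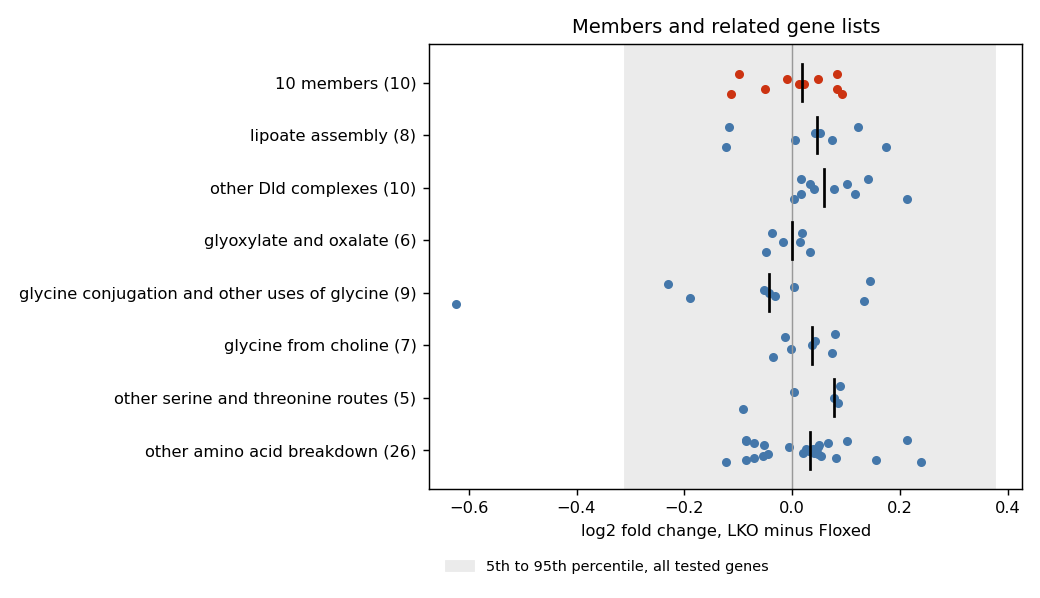
Log2 fold change (LKO minus Floxed) of each tested gene, by list, with the number tested in brackets; the black bars are list medians and the gray band holds the 5th to 95th percentile of all 16915 tested genes (-0.31 to 0.38). All 10 genes described here lie inside the band, and Alas1 at -0.62 is the only list gene outside it.

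The 10 genes did not move as a unit between livers. Over the 12 arrays, which share normalization, slides and overall brightness, the 45 pairs had a median Pearson r of -0.07, with 5 pairs above 0.5 and 1 below -0.5 (Dld and Agxt, -0.58). Dld and Glyat had the highest value (r = 0.70, Spearman rho = 0.63), and both were lowest in Floxed 1. Without Floxed 1 and Floxed 4, the 2 livers farthest from the Dld median, r was 0.43. Amt and Glyctk came next (r = 0.69, rho = 0.46), and each also followed the 75th percentile of the array's intensity, with r of 0.63 and 0.62. The part of array brightness in that pair was not tested. Gldc and Agxt followed each other with r = 0.66 (rho = 0.67), and with r = 0.57 without Floxed 2 and LKO 2, the 2 livers farthest from the Gldc median. For the genomic neighbours Sds and Sdsl, r was 0.46. The Gldc, Amt, Gcsh and Dld proteins work in 1 system, and between the mRNA of Gldc and those of its partners r was 0.22 for Amt, -0.25 for Gcsh and -0.38 for Dld.

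Gldc had the largest SD of the 10 genes (0.31 log2 units, above that of 71.2% of the tested genes), and the difference between mice lay inside each genotype. Of 12511 other tested genes with a symbol, those whose log2 intensity was most like that of Gldc over the 12 livers were Denn2b (Pearson r = 0.95, rho = 0.92), Ndrg1 (r = 0.93, rho = 0.92) and Arntl (r = 0.89, rho = 0.85). They were picked as the highest of that many, so the values describe these livers and carry no test. Denn2b encodes a DENN domain protein, Ndrg1 a stress-responsive protein and Arntl a core transcription factor of the circadian clock. Arntl ran from 6.11 in Floxed 2, the liver with the lowest Gldc value, to 9.39 in LKO 2, the liver with the highest. With group means removed, r was 0.96, 0.93 and 0.93 for the 3 genes, and with slide and genotype means removed it was 0.95, 0.92 and 0.93. Without Floxed 2 and LKO 2, r was 0.92, 0.90 and 0.81. None of the 3 was called between the genotypes, with log2 fold changes of 0.12 for Denn2b, 0.06 for Ndrg1 and 0.56 for Arntl (SE 0.48). Dbp, a clock output gene looked at after Arntl had been seen, ran the opposite way (r = -0.84, rho = -0.86), from 14.35 in Floxed 6 to 9.45 in LKO 2, with r at -0.53 when the arrays were not normalized.

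**Figure D5:**
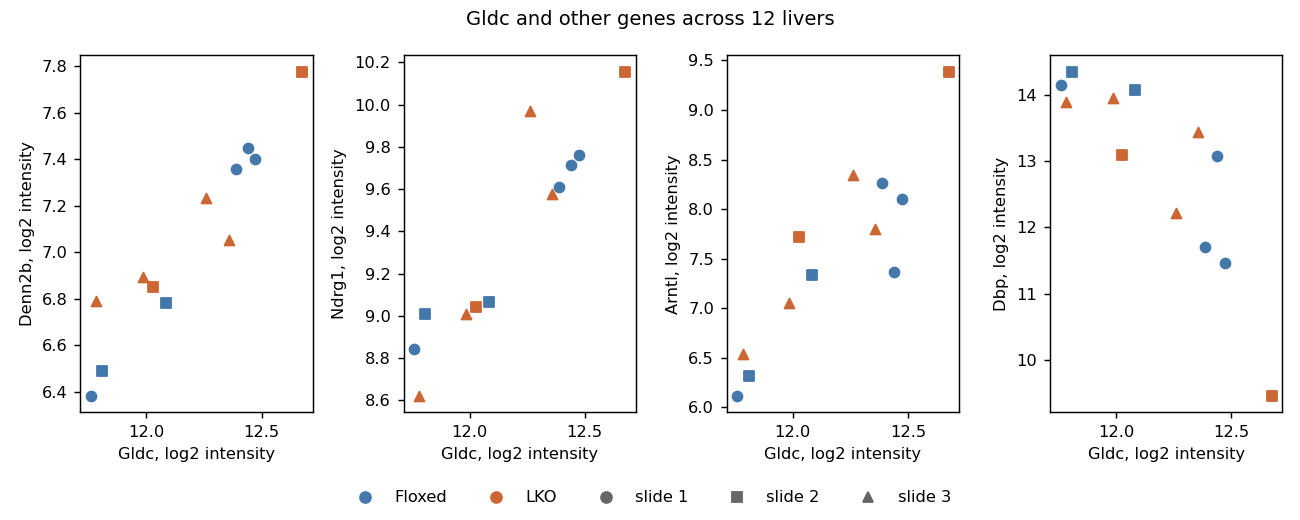
Log2 intensity of Denn2b, Ndrg1, Arntl and Dbp against that of Gldc in the 12 livers, with colors for genotype and shapes for slide. Denn2b, Ndrg1 and Arntl rise with Gldc (r = 0.95, 0.93 and 0.89) and Dbp falls (r = -0.84), with Floxed and LKO mice mixed along each trend and LKO 2 at its end.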

How the data were processed

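Liver RNA of 6 Floxed and 6 LKO mice was measured, 1 array per mouse. The sample labels name TRIzol with a Promega column for the RNA, the paper's methods another kit. The authors deposited for each array the spot intensity from Agilent Feature Extraction (version 9.5.1.1 per the labels, 10.7.1.1 per the file headers), with background removed and no normalization between arrays, and a table of quantile-normalized intensity. These processed values were put on the log2 scale, followed by quantile normalization of the 12 arrays. Control spots (1377 per array) were left out, outlier spots (0.298%) were set missing, spots of a probe were averaged, and probes had to be well above background on every array, which 20404 were. The study's detection p-value filter was not used here. The flag for a signal well above background took its place, and a probe counted as flagged where at least 0.5 of its spots were. Genes were named through RefSeq accessions (GRCm38.p6, 94.3% of 28389 probes matched) and read by their brightest probe, which gave 16915 genes after 1 with missing values was dropped. Coordinates other than those of RefSeq promoter windows are not given, since the array was designed on another build.

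Genotypes were compared with limma 3.58.1 (lmFit and eBayes, R 4.3.3) on all tested genes without covariates. The call criterion was an unadjusted p below 0.05. Benjamini-Hochberg adjusted p-values are over all 16915 genes. For single genes, exact permutation tests (two-sided) were added (924 arrangements, smallest possible p 0.00216). The fitting code was tested on simulated data. The labels call the arrays biological replicates. Precision is limited by how many arrays there are. The 10 genes, the lists and the marker genes were chosen with earlier results of these data known. The rule for named genes took all 10 genes, Phgdh, called list and marker genes or else the 2 with the largest change of each list, and the 3 genes most like Gldc. Of the marker lists (hepatocyte, macrophage, endothelium, stellate cell, cholangiocyte, lymphocyte, blood, adipocyte, pancreas, kidney tubule), 4 of 46 tested genes were called (8.70%, against 8.35% of all tested genes): Pecam1 (0.70), Cel (0.54) and Slc22a6 (1.12) higher and Cftr (-0.83) lower in LKO mice on the log2 scale. The other 6 lists held no called gene. Alternatives covered normalization, background, the dim-probe filter, outlier spots, probe choice, threshold, test, slide, replicate number and each array left out. Leaving out LKO 1 with LKO 2, and each array for the lists, was added after the data had been seen. Not every gene tested is reported here.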

Additional observations from a re-analysis of the deposited data

Results flagged for a closer look

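Of the 20 groups of 6 values (10 genes in each genotype), 1 had an end value farther from the rest than Dixon's 95% critical ratio for 6 values allows. The log2 intensity of Sds in Floxed 5 was 13.15, against 12.90 in the next highest and 12.78 in the lowest Floxed liver, a ratio of 0.673. By chance about 1 of 20 groups would be marked.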

How the results depend on the processing

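None of the 10 genes was called under any alternative, each array left out in turn included. The share of all tested genes called ran from 0% at an adjusted p below 0.05 to 12.8% without LKO 1 and LKO 2. Of 290 values for the 10 genes under the alternatives, 257 kept their sign and 33 did not. These counts do not measure how stable the signs were. Settings that changed the threshold, test, outlier spots or dim-probe filter, or added the replicate block, left these fold changes as in the main fit. Slide as a fixed block and slide 2 alone gave the same value for each gene, and both were counted. Scaled to the 75th percentile, Amt was at 0.0161. With no normalization, Sdsl was at -0.0088. With normexp background correction, Gldc was at -0.0202, Amt at 0.0329 and Gcsh at -0.0167. With the mean of all probes, Gcsh was at -0.0403. With slide as a fixed block and on slide 2 alone, Gcsh was at -0.005, Sds at -0.1314, Sdsl at -0.066, Agxt at 0.1125 and Gnmt at -0.1509. With slide as a random block, Gldc was at -0.0116, and for slide 1 against slide 3 at -0.1689. Without LKO 1 and LKO 2, Gldc was at -0.0627 and Amt at 0.0023. With 1 array left out, Gldc ranged from -0.0765 to 0.1025, Amt from -0.0519 to 0.0424 and Sdsl from -0.0504 to 0.0693, and each of the other 7 genes kept its sign. The cause was not tested.

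The count of genes called on the array, 1413, became 885 with no normalization, 2791 with no filter on dim probes, 0 after adjustment, 91 with a log2 change of 1 or more in either direction, 317 with slide as a fixed block, 512 on slide 2 alone and 2173 without LKO 1 and LKO 2. Leaving out 1 array gave 1105 to 1849. Of the called genes, 58.9% were higher in LKO mice, 78.1% with 75th-percentile scaling and 87.1% with no normalization, while the median of all genes stayed within 0.1 of 0. The count of list genes called, 0 of 71, became 1 of 76 with no filter on dim probes, where 8.58% of all genes were called. With a filter at 6 arrays it was 1 of 74, against 9.4% of all genes (Tdh, 0.44 in each). Slide as a fixed block gave 1 of 71 (Oat, -0.63), against 1.87% of all genes. For slide 1 against slide 3 it was 4 of 71 (Gatm -0.38, Gpt2 0.43, Oat 0.39 and Shmt1 0.24), against 11.5%. Without LKO 1 and LKO 2 it was 1 of 71 (Gatm, -0.32), against 12.8%. Leaving out 1 array gave 0 to 1 list genes, where 6.53% to 10.9% of all genes were called. These were Mccc2 without Floxed 1, Bola3 without Floxed 2 or Floxed 4, Gpt2 without Floxed 6 and Gatm without LKO 2. Oat thus changed sign between the slide fits.

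The titles number the mice 1 to 6 in each genotype, and same-numbered mice have neighbouring animal numbers, but the labels do not say that they share a litter, so the number was not used as a block. Deviations of same-numbered arrays correlated between -0.24 and 0.32, and 2 of 6 Floxed arrays correlated best with their own number. With the replicate block, 1428 of 16915 genes on the array (8.44%), 0 of the 10 genes and 0 of 71 list genes were called.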

Other observations

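Since Arntl was among the genes most like Gldc, a list of 15 clock genes, written after that had been seen, was set against Gldc over the 12 livers, and 12 of its genes were tested. Tef (r = -0.80), Per2 (-0.72) and Nr1d2 (-0.69) ran opposite to Gldc, as Dbp did, and Nfil3 (0.67) ran with it. Further values were -0.49 for Cry2, -0.44 for Nr1d1, 0.35 for Clock, -0.33 for Hlf and -0.19 for Per1. With no normalization between arrays, Dbp was at -0.53, Tef at -0.11, Per2 at -0.05 and Nr1d2 at 0.07, and Hlf, Per1, Cry2 and Nr1d1 were above 0, while Arntl stayed at 0.86. With 75th-percentile scaling of the arrays, Dbp was at -0.78, Tef at -0.81, Per2 at -0.79 and Nr1d2 at -0.73. Per1 (log2 fold change -1.15, limma unadjusted p = 0.000945, adjusted p = 0.257) and Hlf (-0.28, unadjusted p = 0.0228, adjusted p = 0.490) were called between the genotypes, and Arntl was not (0.56, unadjusted p = 0.267). The hour of dissection is not given in the sources used here.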
